A study of Mus musculus with 4 samples.

Results

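Hair bundle and mechanotransduction genes were measured in RNA sequencing libraries of mouse cochleae at postnatal day 10, 2 from Zbtb20 knockout and 2 from wild-type mice on the C57BL/6 strain. The set is a list of 35 genes, known for their part in the hair bundle or in deafness, out of 17816 genes with a value. Of the 35, 34 were found by their symbol and 1, Myo15a, by its gene ID, since the tables list it as Myo15. The knockout is labelled Zbtb20 F/F with a cre driver and the wild type Zbtb20 +/+ with the same driver, so the driver is carried by both genotypes. The driver is spelled FoxG2-cre in the libraries numbered 2 and FoxG3-cre in those numbered 3, and the cells in which it acts are not given in the labels. Whether a library came from a single animal or from pooled cochleae is not stated, so the p-values speak of the spread among these 4 libraries, which may be technical.

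The hair bundle is the array of actin-filled stereocilia on top of each sensory hair cell. Deflection of the bundle pulls on tip links, filaments that join neighbouring stereocilia and open mechanotransduction channels at their lower ends. Loss of many of the genes described here causes deafness in mice and humans, which is how a large part of them was found. In the mouse, mechanotransduction currents of cochlear hair cells mature over the first days after birth, and hearing begins some days later.

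Values were deposited as FPKM, a fragment number corrected for transcript length and for the size of each library. The depth was estimated from the spacing of low FPKM at 17700000 to 19400000 fragments per library, and counting limits the precision of low genes. Zbtb20 itself was at 7.35 and 7.41 FPKM in knockout replicates 2 and 3, against 10.94 and 10.67 FPKM in those of the wild type. Its log2 fold change was -0.49 ± 0.08 (SE, n = 2 per group; limma, adjusted p = 0.0394), and it did not pass with any single library left out (adjusted p = 0.083 to 0.316). An adjusted p under 0.05 was reached by 618 (4.43%) of 13966 tested genes, with 333 higher and 285 lower in the knockout. After rescaling of each library by its median of ratios the split was 243 higher and 355 lower. Leaving out either knockout library left 1 call among all genes. Of 8 Schwann cell markers all were called lower in the knockout, with sums of 511 and 865.6 FPKM in the knockout and 7043 and 3928 FPKM in the wild type. Among 7 markers of the stria vascularis 6 were called higher. Skeletal muscle markers were present in wild-type replicate 2, as given with Smpx and Xirp2.

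With genotype alone in the model, no hair bundle gene passed the test. Of the 35 genes 30 reached a mean of 0.5 FPKM and were tested, and 0 were called higher and 0 lower (limma on log2(FPKM + 1), lowest adjusted p = 0.132). Among all tested genes 2.38% were called higher and 2.04% lower. An unadjusted p under 0.05 was reached by 5, namely Eps8 and Tprn with higher and Smpx, Eps8l2 and Myo7a with lower values in the knockout. Among all genes 22% had an unadjusted p under 0.05, 14.3% with higher and 7.74% with lower values. Fold changes of the 30 genes lay between -0.40 and 0.37 on the log2 scale, with a median of -0.14 beside 0.06 for all tested genes. The fold change was negative in 23 of the 30, and 36.7% of all tested genes had a negative one. Both knockout libraries lay below both wild-type libraries in 16 of the 30 (17.1% of all tested genes) and above them in 5 (37.9% of all tested genes).

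The 95% intervals of the differences were narrow in most of the 30 genes. In 29 of 30 genes the interval lay within 1 log2 unit of 0, which is a 2-fold change of FPKM + 1. The exception was Gipc3, with an interval of -1.03 to 0.28. Standard errors ran from 0.07 to 0.26 with a median of 0.12. Among the 11805 tested genes whose mean FPKM lay in the range of these 30, 495 were called, and the smallest log2 fold change among those calls was 0.38 in size. The largest of the 30 was that of Smpx, 0.40 in size. The addition of 1 FPKM before the logarithm understates the change of low genes. For genes near 1 FPKM an interval within 1 log2 unit can therefore still cover a 2-fold change of FPKM itself. The estimate of Pcdh15, for one, was -0.32 with 1 FPKM added and -0.63 with 0.1 FPKM added.

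**Figure D1:**
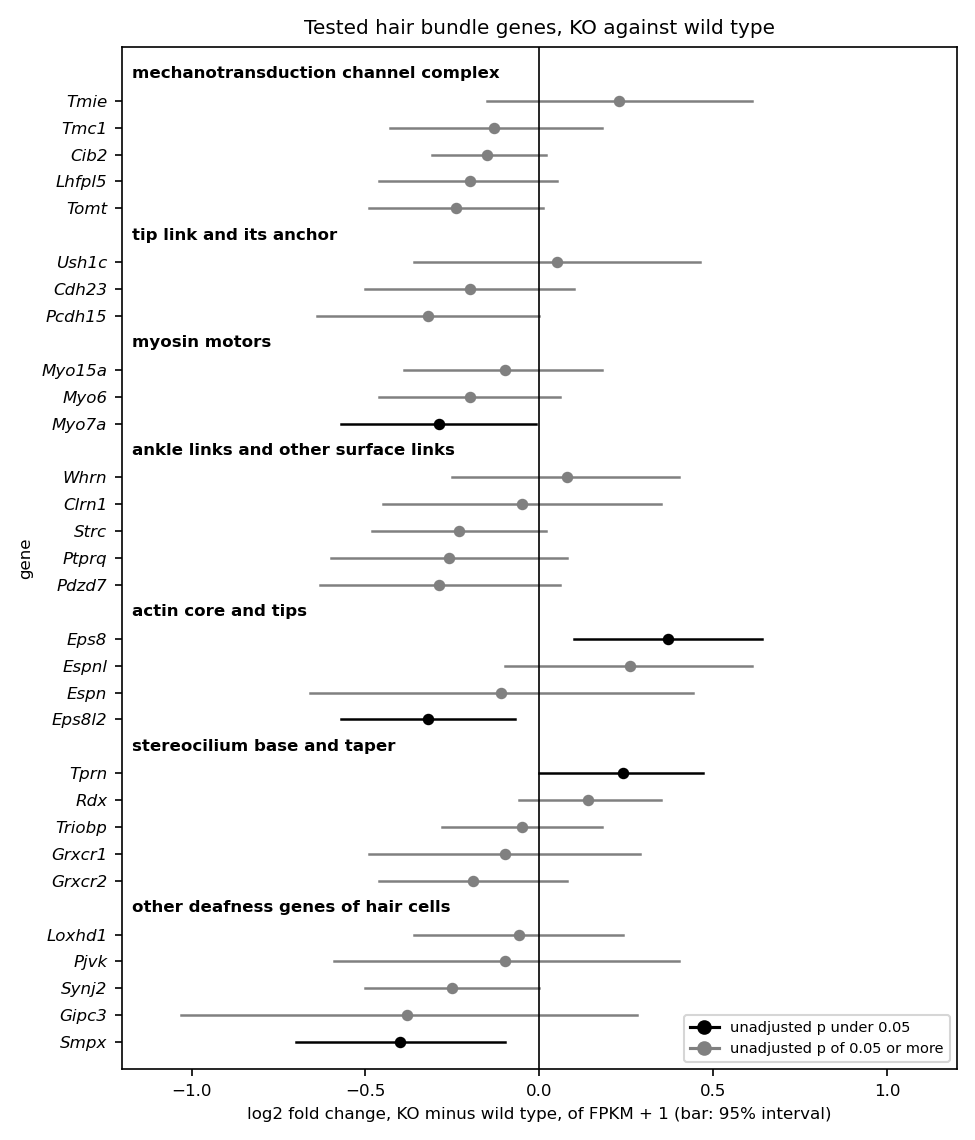
Log2 fold change of FPKM + 1 (knockout minus wild type, horizontal axis) of the 30 tested hair bundle genes, grouped by role. Each point is the limma estimate and each bar its 95% interval, with black marking an unadjusted p under 0.05. Estimates run from -0.40 for Smpx to 0.37 for Eps8, and every interval but that of Gipc3 stays within 1 log2 unit of 0.

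Promoter sequence is shown for 4 of the 5 genes with an unadjusted p under 0.05, which had the lowest p-values of the set. The stretches are RefSeq promoter windows on GRCm38.p6, given 5′ to 3′ on the gene's strand and ended before the gene's outermost annotated start. Capitals mark E-boxes, CANNTG, the letters read by basic helix-loop-helix factors, a family that includes the hair cell factor Atoh1. In these libraries Atoh1 was at 0 to 0.13 FPKM and was not tested.
Smpx, chrX:157698723-157698972, plus strand: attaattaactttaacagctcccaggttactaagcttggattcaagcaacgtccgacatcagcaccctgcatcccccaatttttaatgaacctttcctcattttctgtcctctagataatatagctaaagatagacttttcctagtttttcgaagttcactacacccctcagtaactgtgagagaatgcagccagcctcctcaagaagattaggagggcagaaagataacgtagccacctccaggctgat
Eps8l2, chr7:141338752-141338910, plus strand: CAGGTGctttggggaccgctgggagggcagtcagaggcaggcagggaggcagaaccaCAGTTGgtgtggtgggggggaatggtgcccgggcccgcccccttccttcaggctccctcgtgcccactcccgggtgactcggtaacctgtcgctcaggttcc
Myo7a, chr7:98119523-98119743, minus strand: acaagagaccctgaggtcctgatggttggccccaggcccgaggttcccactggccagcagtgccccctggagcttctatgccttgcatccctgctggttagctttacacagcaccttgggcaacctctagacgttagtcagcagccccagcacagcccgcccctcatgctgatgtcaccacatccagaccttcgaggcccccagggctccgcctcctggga
Tprn, chr2:25262348-25262597, plus strand: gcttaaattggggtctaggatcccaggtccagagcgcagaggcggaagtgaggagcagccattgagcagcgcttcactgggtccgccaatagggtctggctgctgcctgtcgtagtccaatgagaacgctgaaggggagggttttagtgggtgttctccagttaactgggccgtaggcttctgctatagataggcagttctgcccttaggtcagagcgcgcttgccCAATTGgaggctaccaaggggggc

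The Eps8l2 stretch holds 2 E-boxes, that of Tprn 1, and those of Smpx and Myo7a 0. The stretches differ in length, with 250 bases for Smpx and Tprn, 221 for Myo7a and 159 for Eps8l2. Base composition differed, with 42.8% G or C before Smpx, 67.9% before Eps8l2, 62.4% before Myo7a and 57.6% before Tprn. Of 29 hair bundle genes with a window, 21 (72.4%) had an E-box within 250 bases before the start, as did 66.0% of all 27025 windows, searched on both strands. The narrower form CAGNTG, which lies within CANNTG, was in 15 of the 29 (51.7%) and in 44.5% of all windows. The half-site GTTGCC of RFX factors, which hair cells need for survival in the mouse, was in 2 of the 29 (6.9%) and in 10.5% of all windows. The TATA letters TATAAA were in 1 of the 29 (3.45%) and in 13.0% of all windows.

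The channel complex carries the transduction current. Its 6 genes had the widest ratio of highest to lowest mean FPKM within any role, as the plot of levels by library shows. Cib2, which encodes a calcium and integrin binding protein of the complex, was at 32.41 and 33.22 FPKM in the knockout and at 36.54 and 36.4 FPKM in the wild type. The knockout libraries were both lower, by a log2 fold change of -0.15 ± 0.07 (95% interval -0.31 to 0.02; limma, adjusted p = 0.265). Cib2 is not restricted to hair cells, and 15.8% of its exon bases overlap Sh2d7 on the other strand, a gene at 1.21 to 1.53 FPKM.

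Lhfpl5, the gene of a membrane protein that couples tip link and channel, was at 5.02 and 4.76 FPKM in the knockout and 5.45 and 6.11 FPKM in the wild type (log2 fold change -0.20 ± 0.10). Tomt, which encodes a methyltransferase-like protein needed to bring TMC proteins to the bundle, was at 4.91 and 4.69 FPKM in the knockout and 5.54 and 6.16 FPKM in the wild type (-0.24 ± 0.10). In both genes the groups did not overlap and the knockout was lower, with adjusted p of 0.309 and 0.241 (limma). Of the exon bases of Tomt 69.3% overlap Anapc15 on the other strand, at 9.18 and 7.85 FPKM in the knockout and 8.21 and 7.98 FPKM in the wild type. The sources used here do not say whether strand was used, so the fragments of Tomt and Anapc15 cannot be told apart.

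Tmie encodes a small membrane protein that the channel needs to conduct. It was at 4.76 and 4.68 FPKM in the knockout, against 4.57 and 3.28 FPKM in the wild type. This was the only gene of the 5 tested in the complex with a positive fold change, 0.23 ± 0.15 (95% interval -0.15 to 0.61; limma, adjusted p = 0.415), and wild-type replicate 2 lay near the knockout values. Without wild-type replicate 3 the estimate was 0.04. Of the exon bases of Tmie 7.9% overlap Als2cl on the other strand. Als2cl was at 17.92 and 19.73 FPKM in the knockout and 12.62 and 14.05 FPKM in the wild type. The part of Als2cl fragments in the Tmie values was not tested. Tmc1 encodes the pore-forming subunit of the mature channel. It was at 2.41 and 2.87 FPKM in the knockout and 2.81 and 3.12 FPKM in the wild type, with overlapping groups and a log2 fold change of -0.13 ± 0.12 (95% interval -0.43 to 0.18).

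Tmc2, the paralog that serves cochlear hair cells in the first days after birth in the mouse, was close to the limit of detection. It was at 0.09 and 0.05 FPKM in the knockout and 0.05 and 0.09 FPKM in the wild type. At the estimated depths these values amount to about 5.2 and 3.1 fragments in the knockout libraries and 2.8 and 5.4 in the wild-type libraries. Tmc2 was not tested, and a difference between genotypes was not detectable at this depth. The FPKM of Tmc1 was 26.8 and 57.4 times that of Tmc2 in the knockout and 56.2 and 34.7 times in the wild type, ratios that overlap between genotypes and rest on those few fragments.

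**Figure D2:**
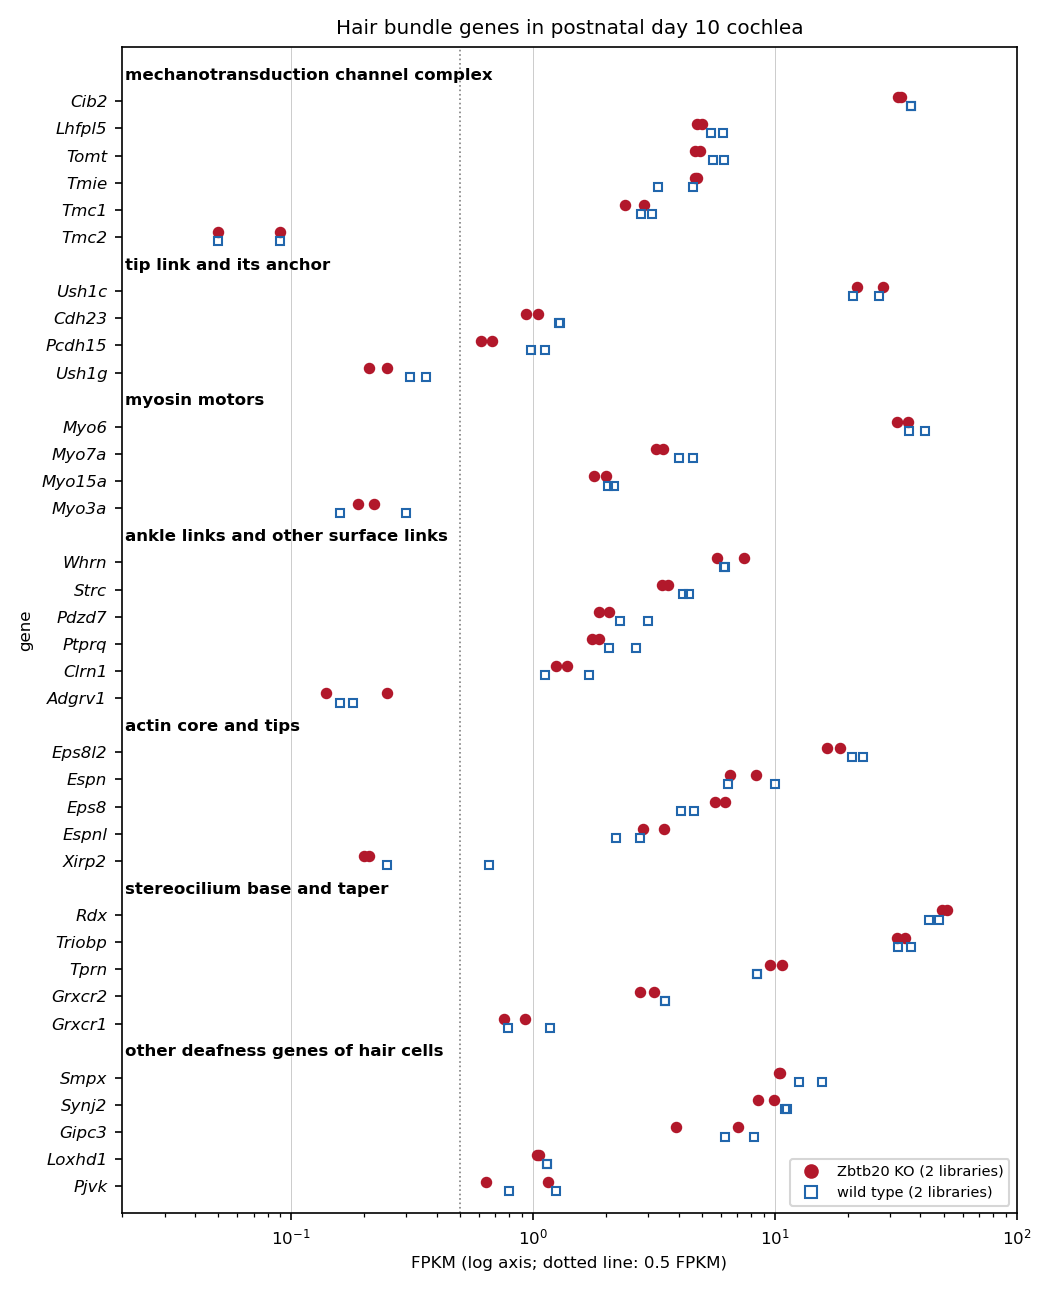
FPKM of the 35 hair bundle genes in each library (horizontal, log axis), grouped by role and ordered by mean level. Filled circles are the 2 knockout libraries, drawn above the open squares of the 2 wild-type libraries, and the dotted line is the 0.5 FPKM filter. Levels run from 0.05 FPKM for Tmc2 to 51.5 FPKM for Rdx, and the genotypes lie close together in most genes.

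The tip link is made of cadherin 23 and protocadherin 15. Pcdh15, whose product forms its lower end at the channel, was at 0.61 and 0.68 FPKM in the knockout, against 0.98 and 1.12 FPKM in the wild type. The wild-type mean was 1.63 times that of the knockout, and the log2 fold change was -0.32 ± 0.13 (95% interval -0.64 to 0.00; limma, adjusted p = 0.232). Cdh23, whose product forms the upper end, was at 1.05 and 0.94 FPKM in the knockout and 1.28 and 1.3 FPKM in the wild type (-0.20 ± 0.12, adjusted p = 0.38). In both genes every knockout value was below every wild-type value. With 0.1 in place of 1 FPKM added before the logarithm, the estimates were -0.63 for Pcdh15 and -0.35 for Cdh23.

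The upper tip link is anchored by harmonin, encoded by Ush1c, and the scaffold protein encoded by Ush1g. Ush1c was at 27.88 and 21.85 FPKM in the knockout and 26.96 and 21.0 FPKM in the wild type. In each genotype the library numbered 2 was the higher, and the genotypes overlapped, with a log2 fold change of 0.05 ± 0.16 that was -0.02 after median-of-ratios rescaling. The level of Ush1c, per length, was 26.6 and 23.2 times that of Cdh23 in the knockout and 21.1 and 16.2 times in the wild type, so these partners were not measured at like levels in whole cochlea. Ush1g was below the filter, at 0.21 and 0.25 FPKM in the knockout and 0.31 and 0.36 FPKM in the wild type, near 12.4 and 16 fragments against 18.1 and 22.1.

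Among the myosin motors, Myo7a stands at the upper tip link anchor and its loss causes Usher syndrome. It was at 3.23 and 3.44 FPKM in the knockout, against 4.01 and 4.61 FPKM in the wild type, with groups that did not overlap. The log2 fold change was -0.29 ± 0.11 (unadjusted p = 0.0426, adjusted p = 0.212, limma; chromosome 7, 98051054 to 98119522). Myo6 encodes the motor that walks towards the base of the stereocilium and is expressed in many other cells. It was at 32.0 and 35.39 FPKM in the knockout and 35.79 and 41.97 FPKM in the wild type, with a log2 fold change of -0.20 ± 0.10. Wild-type replicate 2 and knockout replicate 3 were nearly level in Myo6.

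Myo15a, whose product carries whirlin and EPS8 to the tips of stereocilia, was at 1.79 and 2.0 FPKM in the knockout and 2.16 and 2.05 FPKM in the wild type (-0.10 ± 0.11). Myo3a, a motor gene of stereocilia tips, was at 0.19 and 0.22 FPKM in the knockout and 0.16 and 0.3 FPKM in the wild type and was not tested. All 3 tested motor genes had knockout values below the wild-type ones, as did 17.1% of all tested genes, and none passed. In Myo15a the nearest values were 2.0 FPKM in the knockout and 2.05 FPKM in the wild type.

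Ankle links join the bases of growing stereocilia, and other coats and links hold the surface. Whrn, which encodes the scaffold protein whirlin, was at 7.44 and 5.78 FPKM in the knockout and 6.16 and 6.2 FPKM in the wild type. The knockout libraries lay on either side of the wild-type ones, with a log2 fold change of 0.08 ± 0.13. Strc, which encodes stereocilin of the top connectors of outer hair cell bundles, was at 3.41 and 3.63 FPKM in the knockout, against 4.42 and 4.17 FPKM in the wild type (-0.23 ± 0.10, adjusted p = 0.256, limma). Pdzd7, a scaffold gene of the ankle link complex, and Ptprq, the gene of a phosphatase of shaft connectors, also had both knockout libraries below the wild-type ones, at -0.29 ± 0.14 and -0.26 ± 0.13. Without wild-type replicate 3 these estimates were -0.15 and -0.13. Of the exon bases of Pdzd7 5.1% overlap Lzts2 on the other strand, a gene at 41.38 to 53.49 FPKM. Pdzd7 was at 1.88 to 2.99 FPKM, and the part of Lzts2 fragments in it was not tested. Clrn1, which encodes the membrane protein clarin 1, overlapped between genotypes at 1.12 to 1.7 FPKM. Adgrv1, the gene of the very long ankle link receptor, was at 0.14 to 0.25 FPKM, about 52.5 to 86.5 fragments per library, and was not tested.

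The genes of the actin core and of stereocilia tips differed in direction. Eps8 encodes an actin regulator at stereocilia tips that lengthens them, and it had the largest positive fold change of the set. It was at 6.25 and 5.64 FPKM in the knockout, against 4.63 and 4.1 FPKM in the wild type, 0.37 ± 0.11 on the log2 scale (unadjusted p = 0.016, adjusted p = 0.132, limma; chromosome 6, 137477245 to 137649397). Its paralog Eps8l2, which maintains stereocilia in the mature mouse ear, was at 18.6 and 16.38 FPKM in the knockout, against 23.19 and 20.82 FPKM in the wild type, -0.32 ± 0.10 (unadjusted p = 0.0222, adjusted p = 0.156, limma; chromosome 7, 141338911 to 141363020). Neither gene's genotypes overlapped. Of the exon bases of Eps8l2 32.2% overlap the transcript model B230206H07Rik on the other strand, and neither paralog is restricted to hair cells.

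The FPKM of Eps8 divided by that of Eps8l2 was 0.336 and 0.344 in the knockout and 0.2 and 0.197 in the wild type. The ratio was 1.72 times higher in the knockout and its replicates nearly coincided, but with 2 libraries against 2 the exact permutation test cannot go below the p = 0.333 it gave (two-sided). This ratio, from 4 paralog pairs compared, is a description. Espn, which encodes the actin bundling protein espin, was at 8.38 and 6.5 FPKM in the knockout and 10.03 and 6.42 FPKM in the wild type. Its estimate of -0.11 ± 0.22 was 0.05 without knockout replicate 3 and 0.18 without wild-type replicate 2, so no direction can be given. Espnl, the espin-like gene, was at 3.47 and 2.86 FPKM in the knockout, against 2.77 and 2.2 FPKM in the wild type (0.26 ± 0.14, adjusted p = 0.341, limma). The ratio of Espn to Espnl was 2.42 and 2.27 in the knockout and 3.62 and 2.92 in the wild type, lower in both knockout libraries, with an exact p of 0.333.

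**Figure D3:**
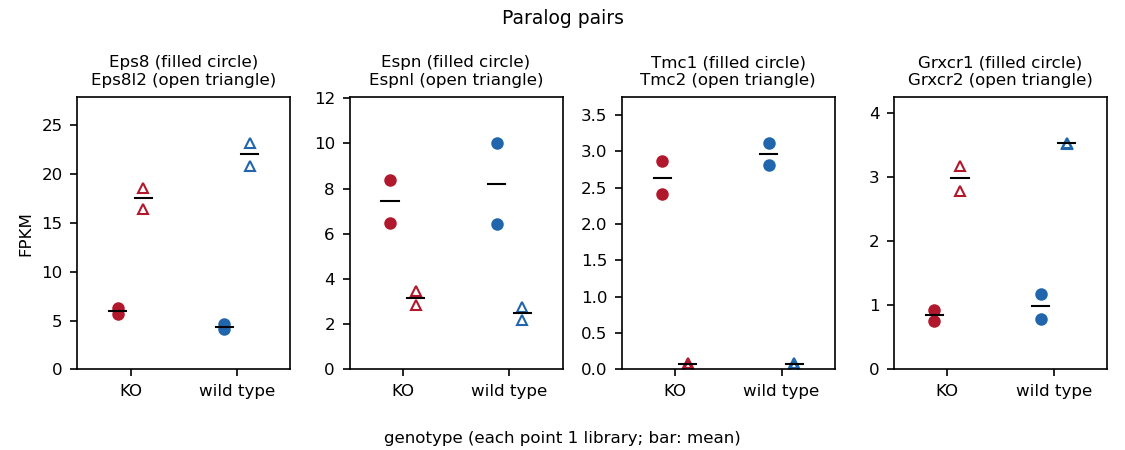
FPKM (vertical axis, from 0) of 4 paralog pairs in the knockout and wild-type libraries, with filled circles for the first and open triangles for the second gene, each point a library and each bar a mean. Eps8 sits higher and Eps8l2 lower in the knockout, Espnl sits higher there, and Tmc1 and Grxcr1 overlap between genotypes.

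At the base of the stereocilium, filaments narrow and enter the cell as rootlets. Rdx, which encodes radixin, a linker of actin to the membrane, had the highest level of the set, at 48.99 and 51.51 FPKM in the knockout and 43.19 and 47.59 FPKM in the wild type. Both knockout libraries were above the wild-type ones, by 0.14 ± 0.08 on the log2 scale (95% interval -0.06 to 0.35). Triobp, the gene of the rootlet's actin bundler, was at 34.67 and 31.89 FPKM in the knockout and 36.68 and 32.31 FPKM in the wild type, which overlap. Rdx and Triobp are transcribed in many cell types, as Myo6 and Cib2 are, so whole-cochlea levels of these 4 genes are not those of hair cells.

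Tprn encodes taperin, a protein of the stereocilium taper. It was at 10.75 and 9.55 FPKM in the knockout, against 8.45 and 8.44 FPKM in the wild type (0.24 ± 0.09, unadjusted p = 0.0477, adjusted p = 0.223, limma; chromosome 2, 25262598 to 25269886). Grxcr1 and Grxcr2, the genes of glutaredoxin-like proteins of the bundle, were at different levels. Grxcr1 was at 0.93 and 0.76 FPKM in the knockout and 1.18 and 0.79 FPKM in the wild type, and Grxcr2 was at 3.17 and 2.78 FPKM in the knockout and 3.53 and 3.51 FPKM in the wild type. The ratio of Grxcr1 to Grxcr2, at 0.293 and 0.273 in the knockout and 0.334 and 0.225 in the wild type, overlapped between genotypes.

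The remaining 5 genes are deafness genes of hair cells with other roles. Smpx encodes a small protein found in stereocilia and in striated muscle. It was at 10.47 and 10.4 FPKM in the knockout, against 15.74 and 12.62 FPKM in the wild type, with the most negative fold change of the set, -0.40 ± 0.12 (95% interval -0.70 to -0.10; unadjusted p = 0.0179, adjusted p = 0.14, limma; chromosome X, 157698973 to 157752591). Without wild-type replicate 2 the estimate was -0.25, with the knockout still below wild-type replicate 3. Xirp2, the gene of an actin-binding repeat protein of hair bundles and of striated muscle, was at 0.2 and 0.21 FPKM in the knockout and 0.66 and 0.25 FPKM in the wild type, below the filter. The high value was that of wild-type replicate 2, 2.64 times that of replicate 3.

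Skeletal muscle transcripts were also highest in wild-type replicate 2. The 17 muscle markers summed to 7.07 and 3.72 FPKM in the knockout libraries and to 629.1 (replicate 2) and 3.33 FPKM (replicate 3) in the wild-type libraries. Acta1, the skeletal actin gene, was at 130.8 FPKM in wild-type replicate 2 and at 0 to 0.38 FPKM in the other 3 libraries. The part of this muscle RNA in the wild-type level of Smpx and Xirp2 was not tested.

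**Figure D4:**
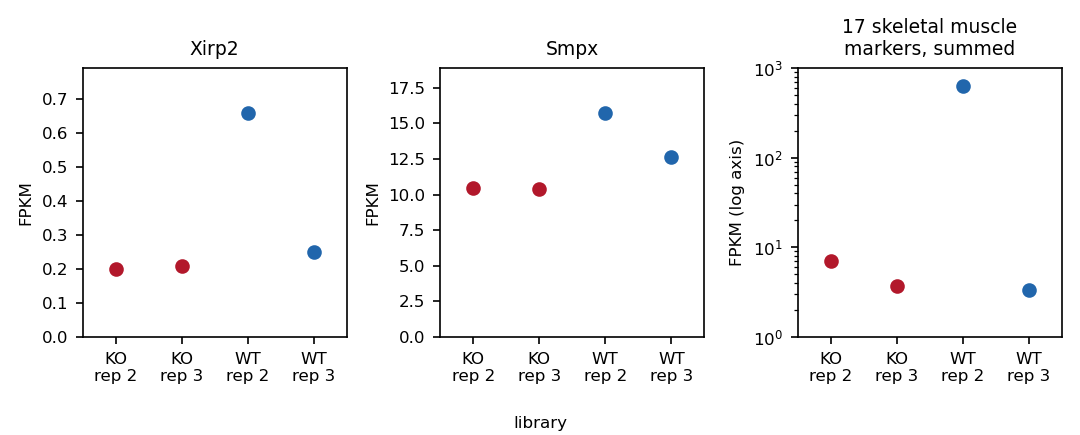
FPKM of Xirp2, of Smpx (linear axes from 0) and of 17 skeletal muscle markers summed (log axis) in the 4 libraries, with knockout libraries in red and wild-type ones in blue. Wild-type replicate 2 is the highest in all 3 panels, at 0.66, 15.74 and 629.1 FPKM.

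Synj2, the gene of a phosphoinositide phosphatase whose mutation deafens mice, was at 8.53 and 9.97 FPKM in the knockout, against 11.07 and 11.21 FPKM in the wild type (-0.25 ± 0.10, adjusted p = 0.233, limma). Gipc3, which encodes a PDZ domain protein of hair cells, was at 7.07 and 3.9 FPKM in the knockout and 8.21 and 6.23 FPKM in the wild type. Its libraries overlapped between genotypes, and its estimate of -0.38 ± 0.26 ranged from -0.74 to -0.02 as single libraries were left out, with the first of these values without knockout replicate 2 and the last without knockout replicate 3. Pjvk, the gene of pejvakin, was at 1.15 and 0.64 FPKM in the knockout and 1.24 and 0.8 FPKM in the wild type. Loxhd1, the gene of a stereocilia membrane protein, was at 1.04 and 1.06 FPKM in the knockout and 1.14 in both wild-type libraries (-0.06 ± 0.12).

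Across roles, the order of levels was set by a few genes. Rdx, Myo6, Cib2, Triobp and Ush1c, the 5 highest, made up 59.3% and 61.3% of the summed FPKM of the set in the knockout libraries and 57.0% and 58.9% in the wild-type libraries. Myo6, Cib2 and Triobp followed Rdx at means of 36.3, 34.6 and 33.9 FPKM over the 4 libraries and did not differ beyond the spread between libraries. The 35 genes summed to 296.5 and 283.6 FPKM in the knockout and 314.5 and 304.2 FPKM in the wild type. The 8 genes at 10 FPKM or more on average had a median fold change of -0.17, and the 22 tested genes below that level had one of -0.12.

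Hair cell genes outside the set were measured in the same libraries. Some of them, such as the calcium-binding protein gene Calb2, are also transcribed in cochlear neurons. Of 20 such markers 18 were tested, and 1 was called lower and 0 higher, beside 2.04% and 2.38% of all tested genes. The called gene was Atp2a3, a calcium pump gene, at 9.42 and 7.65 FPKM in the knockout, against 14.89 and 14.62 FPKM in the wild type (-0.73 ± 0.11, adjusted p = 0.0341, limma). The call was not kept with any single library left out, but those fits leave 1 library in a genotype, so its absence there says little. The absence of a filter ended it as well. Without the trend of variance on intensity, 2 of these markers and 519 of all genes were called. With the replicate number as a term, 5 of these markers and 2353 of all genes were called. Chrna9, an acetylcholine receptor subunit gene of hair cells, was at 1.54 and 1.55 FPKM in the knockout and 2.61 and 2.68 FPKM in the wild type (-0.52 ± 0.11, adjusted p = 0.0675, limma). Otof, the gene of the synaptic calcium sensor otoferlin, was at 6.67 and 4.72 FPKM in the knockout and 8.36 and 10.26 FPKM in the wild type (-0.63 ± 0.17, adjusted p = 0.123, limma).

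The median fold change of the 18 markers was -0.29, beside -0.14 for the 30 hair bundle genes and 0.06 for all genes. It was negative in 15 of the 18 and in 36.7% of all tested genes. The knockout libraries lay below the wild-type ones in 10 of the 18 markers (17.1% of all tested genes) and above them in 3 (37.9% of all tested genes). An unadjusted p under 0.05 (limma) was reached by 9 of the 18 with lower and by 1 with higher knockout values. Among all tested genes 7.74% and 14.3% reached it in those directions. With 1 of the 18 called after adjustment, a lower level of hair cell RNA was not established. Whole cochlea also cannot tell the number of hair cells from the RNA in each. Markers of other cells had negative median fold changes in the same libraries, of -1.06 for 7 neuron genes, 5 of them negative, -0.86 for 6 marrow genes and -2.66 for 8 Schwann cell genes. Their part in the hair cell values was not tested. Supporting cell markers, from the cells around the hair cells, had a median of -0.27, close to that of the hair cell markers. Of the 11 tested 8 were negative, 2 were called lower and 1 was called higher. The 4 vestibular and otoconial markers, of neighbouring organs that also hold hair cells, had a median of -0.22, with 2 positive and 2 negative. Of the 4, 1 was called higher and 1 lower, and the part of such tissue in these libraries was not tested.

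Other genes of the hair bundle, taken from a separate list of 38, did not share the lower median. Of them 34 were tested, and 0 passed (limma), while 7 had an unadjusted p under 0.05, 5 with higher and 2 with lower knockout values. Among all tested genes 22% had such a p, 14.3% with higher and 7.74% with lower values. The median of the 34 was 0.00, with 17 positive and 17 negative fold changes. Pls1, which encodes the actin bundler plastin 1, was at 6.71 and 6.65 FPKM in the knockout, against 4.69 and 4.38 FPKM in the wild type (0.47 ± 0.09, adjusted p = 0.0582, limma). Kncn, the gene of kinocilin, was at 2.79 and 2.82 FPKM in the knockout and 5.19 and 4.2 FPKM in the wild type (-0.58 ± 0.12, adjusted p = 0.0727, limma). Clic5, whose product acts with radixin and taperin at the base of the stereocilium, was at 7.56 and 7.09 FPKM in the knockout and 9.24 and 10.49 FPKM in the wild type (-0.38 ± 0.10, adjusted p = 0.109, limma). Many genes of that list, such as the actin genes Actb and Actg1, are transcribed in nearly every cell. The difference between the medians of these lists was not tested.

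**Figure D5:**
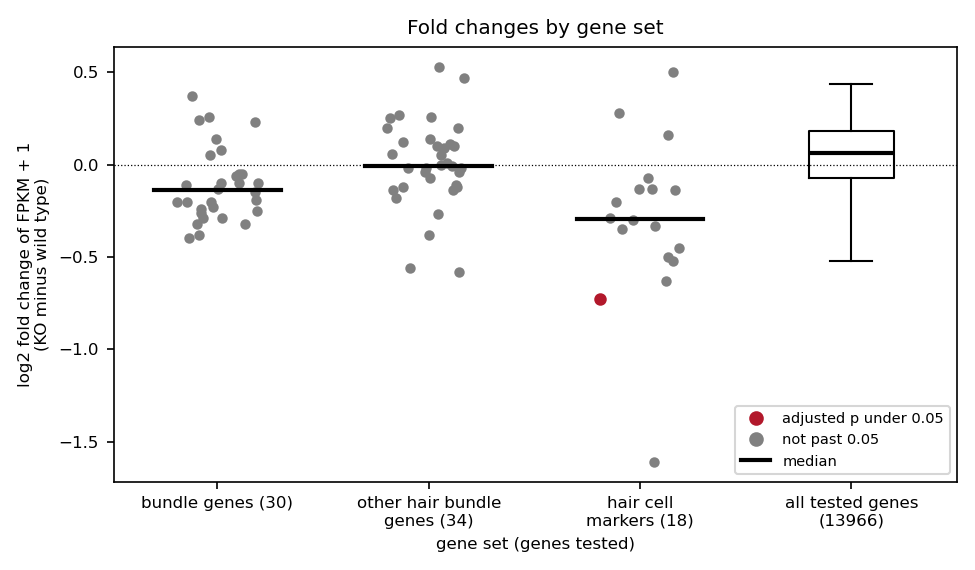
Log2 fold change of FPKM + 1 (knockout minus wild type, vertical axis) of the 30 tested hair bundle genes, 34 other hair bundle genes, 18 hair cell markers and all 13966 tested genes. Points are genes, with red for an adjusted p under 0.05, thick lines are medians, and the box shows the quartiles of all genes with whiskers from the 5th to the 95th percentile. The medians are -0.14, 0.00, -0.29 and 0.06, and Atp2a3 is the red point.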

How the data were processed

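RNA of postnatal day 10 mouse cochleae was sequenced in 4 libraries, 2 per genotype. The authors deposited FPKM per gene and library, rounded to 2 decimals, per the file headers. The submitters' processing notes name RSEM 1.2.12, HISAT2 2.0.4 and Bowtie2 2.2.5, without their roles, and the build mm10. RSEM divides fragments that match several genes by estimation, and whether strand was used is not stated by those sources, so values of paralogs and overlapping genes are uncertain. A repeated FPKM column in each table (4 in all) was not used. FPKM is relative to the library, so transcripts that take a larger share lower the others.

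Genes that averaged 0.5 FPKM or more over the 4 libraries were tested on log2(FPKM + 1) with limma 3.58.1 (R 4.3.3), with genotype in the model and the variance trended on intensity, with Benjamini-Hochberg adjustment, two-sided, over all tested genes. The fit was tested on simulated data. Errors are SE for fold changes, and intervals cover the spread between libraries. Fragment depth was sought as the value that made most low FPKM of 300 to 1500 base single-transcript genes whole within 0.15 fragments. Between 70.8% and 74.2% of 430 to 476 values were whole, where chance gives 30%, too few to treat as counts. Exon overlaps come from GENCODE vM21 (GRCm38, which is mm10).

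The genes and lists were chosen with earlier results of these data known. Values in every library are given for genes with an unadjusted p under 0.05, for the highest genes of each role and for 4 paralog pairs, and other named genes were chosen after their values were seen. From the hair cell, other hair bundle, supporting cell, skeletal muscle, Schwann cell, vestibular, stria vascularis, fibrocyte, neuron and marrow lists, calls and the 3 lowest p-values were named where a result used them. Of 6 fibrocyte genes 2 were called higher and 2 lower. Of 7 neuron genes 1 was called higher, while 5 had a negative fold change and their median was -1.06. Of 6 marrow genes 2 were called lower, with the knockout below the wild type in 6 and a median of -0.86.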

Additional observations from a re-analysis of the deposited data

How the results depend on the processing

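The 11 alternatives included each library left out in turn. Those fits leave 1 library in a genotype, so the absence of calls in them says little. Among the alternatives with all libraries, the count of hair bundle genes called was 0 in each direction under most settings. These were another scaling, pseudocounts of 0.1 and 0.5, no filter, a filter at 1 FPKM and no intensity trend. The exception was the replicate block, with the replicate number as a term, when 1 was called higher (Eps8, adjusted p = 0.0405) and 2 lower (Eps8l2, 0.0211, and Smpx, 0.0357; limma). With the block 5 other hair bundle genes, 5 hair cell markers and 2353 of all genes (16.8%) were called. Libraries of equal number share a spelling of the cre driver, and the labels do not say that they share a litter, batch or day. Differences between replicates 2 and 3 correlated across genes at 0.4 between the genotypes, with 13 of 30 hair bundle genes higher and 7 lower in replicate 2 of both. The matching share of all tested genes was not counted, so these counts do not set the hair bundle genes apart.

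The median of the tested hair bundle genes was -0.20 after median-of-ratios rescaling, -0.19 and -0.15 with pseudocounts of 0.1 and 0.5, -0.12 without a filter, -0.15 at 1 FPKM, and -0.18 to -0.14 with single libraries left out. Without a filter 266 genes and 0 hair cell markers were called, and Zbtb20 had -0.49 (adjusted p = 0.0766), and without the trend 2 markers were called. With single libraries left out, 1 to 580 genes, 0 markers and 0 to 1 other hair bundle genes were called, and Zbtb20 ranged from -0.51 to -0.48.

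Of 327 single-gene estimates under the alternatives 312 kept their direction and side of the threshold, 3 passed it and 12 changed sign, none of them called. Ush1c was at -0.02 after rescaling. With single libraries left out, the estimates ranged from -0.12 to 0.22 for Ush1c, -0.08 to 0.23 for Whrn, -0.40 to 0.18 for Espn, -0.14 to 0.04 for Triobp, -0.29 to 0.10 for Pjvk, -0.24 to 0.04 for Grxcr1 and -0.23 to 0.12 for Clrn1. The cause was not tested. With 1 library left in a genotype, it is assumed to vary like the other genotype's. At under about 30 fragments per library, as for Tmc2, Myo3a, Ush1g, Grxcr1 and Pjvk, counting limits what can be seen.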
